A study of Mus musculus with 74 samples.

Results

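Otx2 was followed as a single gene, picked by its name, through all 35 RNA-seq libraries of the series, 1 gene of the 37620 in the deposited tables. The libraries fall into 12 conditions of mouse embryonic stem (ES) cells. The largest set, of 26 libraries, came from SunTag cells, E14Tg2a derivatives that carry a doxycycline (Dox) inducible dCas9 with a GCN4 epitope array and an scFv antibody fused to the activator VP64. Nanog SunTag cells express a guide RNA against the Nanog promoter in the parental clones C1 and C2, and Nanog/Otx2 SunTag cells carry in addition a guide against Otx2 in 2 clones derived from them, C1ON3 and C2ON3. Each of these lines is 1 clone, and C1ON3 and C2ON3 had been chosen because they induced both Nanog and Otx2 on Dox, so an increase of both genes was a condition of their selection. C1 and C2 had likewise been chosen for their induction. Both kinds of SunTag cells were grown for 3 days with or without LIF (10 ng per mL) and with or without Dox (1 µg per mL), and the cells without Dox carry the same guides and transgenes as those with it. The 44iN cells lack endogenous Nanog and express a Nanog transgene under Dox. They were profiled with Dox (2 libraries), 24 h after Dox removal (2 libraries) and after long-term culture without it (2 libraries), all with LIF. Per the paper, the long-term culture without Nanog was kept under G418 selection, which is not stated for the other 44iN or the Tg2a cells. Wild-type Tg2a cells in foetal calf serum and LIF gave 3 libraries. Samples of one condition are called libraries here because no label states that they came from separate cultures, so the p-values measure only the spread between these libraries.

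Otx2 is an OTX class homeodomain transcription factor of the epiblast, the anterior neuroectoderm and the head organiser tissues of the embryo. In ES cell cultures it is known for its rise when cells leave the naive state and for binding enhancers of the formative and primed epiblast, together with Oct4. Nanog is a homeodomain factor of the naive network, and LIF is the cytokine that sustains this network through Stat3.

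The Otx2 gene (ENSMUSG00000021848) lies on the minus strand of mm9 at chr14:49277354-49287319, with 8 annotated transcripts that begin at several places. The Otx2 guide is shown to place its site among these starts. Its 20 bases had 1 exact match in the mm9 genome, at chr14:49282649-49282668 on the minus strand, followed by the PAM AGG:

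Otx2 guide: aatgtagagcgtgcatttgg

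The site was in no exon. Its near end was 102 bases upstream of the start of Otx2-003, at position 49282547, and it fell within introns of 6 longer transcripts (Otx2-001, 002, 004, 006, 007 and 008), whose starts were 2253 to 4651 bases further upstream. The guide thus lies downstream of those 6 starts, and the start of Otx2-005, at position 49281607, is further downstream than that of Otx2-003. The 150 bases that end just before the Otx2-003 start, chr14:49282548-49282697 on the minus strand of mm9, are given with the guide match in capitals:

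Otx2 window: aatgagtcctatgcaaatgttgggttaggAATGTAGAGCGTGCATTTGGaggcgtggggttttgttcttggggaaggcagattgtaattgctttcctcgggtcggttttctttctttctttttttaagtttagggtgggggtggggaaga

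The Nanog guide, carried by every SunTag line, had a first g that was added to 20 matching bases. Those bases were found at chr6:122657269-122657288 on the plus strand, next to the PAM GGG, and their near end was 219 bases upstream of the start of Nanog-003:

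Nanog guide: gcttcccactagagatcgcca

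**Figure D1:**
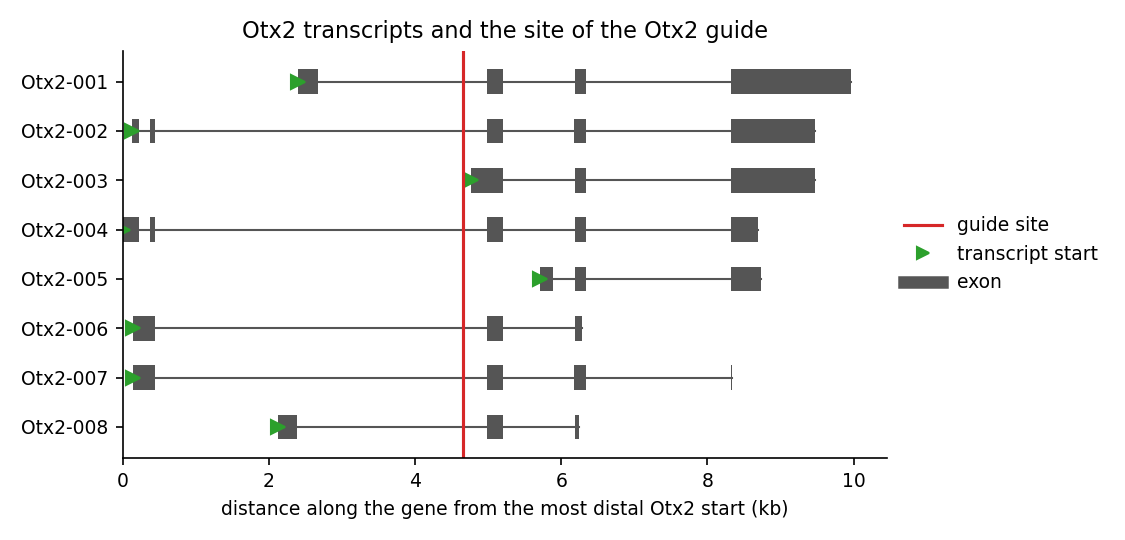
Map of the 8 Otx2 transcripts, with the distance along the gene in kb from the most distal start on the horizontal axis, exons as boxes and starts as arrowheads. The vertical line marks the guide site at 4.65 kb, just before the start of Otx2-003 at 4.77 kb and inside introns of 6 other transcripts.

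Counts were made per gene, so the transcript that carried a change in Otx2 was not resolved. The unit is the normalised read count deposited by the authors, which is scaled between libraries and not corrected for gene length. Library totals ranged from 6107512 to 92244655 estimated reads, and Otx2 itself was counted with 110 to 10958 estimated reads per library.

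Across the conditions the mean level of Otx2 covered a 36.9-fold range and that of Nanog a 336-fold range. Otx2 was lowest in 44iN cells with Dox (194.5 ± 33.2 normalised counts, SD, n = 2) and in Nanog SunTag cells with LIF and Dox (236.8 ± 100, n = 2). Next came Tg2a (760 ± 97.8, n = 3), Nanog SunTag with LIF alone (784 ± 109, n = 3) and Nanog/Otx2 SunTag with LIF alone (952.3 ± 187, n = 3). The 44iN cells stood above these after 24 h without Dox (1574 ± 275, n = 2) and after long-term culture without it (1681 ± 488, n = 2). Nanog SunTag cells without LIF and with Dox had 2450 ± 188 (n = 3) and Nanog/Otx2 SunTag cells with LIF and Dox 3509 ± 243 (n = 4). The cells without LIF and Dox were at 4074 ± 860 in the Nanog/Otx2 lines (n = 4) and at 4238 ± 697 in the Nanog lines (n = 3). The Nanog/Otx2 cells without LIF and with Dox were the highest, at 7173 ± 238 (n = 4). Of the 11 pairs of neighbours in this order, 6 overlapped in their libraries. The gaps fell above the Nanog SunTag cells with LIF and Dox, above the Nanog/Otx2 cells with LIF alone, on both sides of the Nanog SunTag cells without LIF and with Dox, and below the Nanog/Otx2 cells without LIF and with Dox.

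**Figure D2:**
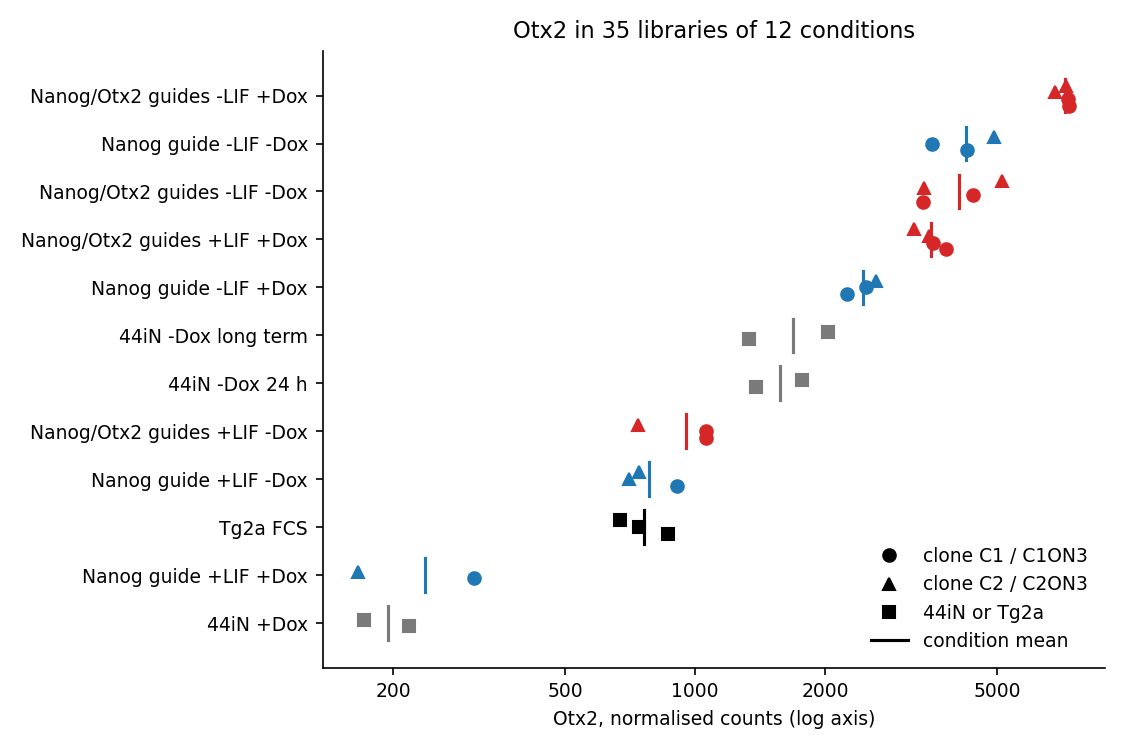
Otx2 in normalised counts on a log axis, 1 symbol per library, in the 12 conditions ordered by their mean (vertical ticks); circles are clones C1 and C1ON3, triangles C2 and C2ON3, squares 44iN or Tg2a. The 4 libraries with both guides, Dox and no LIF sit between 6827 and 7347, above all others, and the lowest are the 44iN cells with Dox and the Nanog SunTag cells with LIF and Dox.

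The markers of ES cells were present in every condition (6 of 6 genes measured, summed level 37300 to 181000 normalised counts). Marker sums of other cell types were lower, at 120 to 716 for primitive streak and mesoderm (5 genes), 97.3 to 1730 for trophoblast (4 genes) and 500 to 4610 for neural cells (3 of 4 genes). Extraembryonic endoderm markers (6 of 6 genes measured) summed to 6260 to 9470 in long-term 44iN cells and to 5060 to 7300 in Tg2a, against at most 1960 in the other conditions, and fibroblast markers (4 of 4 genes) to 2330 to 3620 and 1380 to 1740, against at most 909. In bulk RNA, fewer cells that express Otx2 and less Otx2 RNA per cell cannot be told apart.

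The first comparison asks how Otx2 differed where Dox raised Nanog in cells with LIF. No RNA-seq library came from SunTag cells given Dox without a guide. In SunTag cells, effects of Dox itself and of the induced dCas9 and VP64 therefore cannot be told apart from those of the target genes. In Nanog SunTag cells Otx2 had 908 (C1), 704 and 740 (C2) normalised counts without Dox, and 308 (C1) and 166 (C2) with Dox. Both libraries with Dox were below all 3 without it, and the means differed 3.31-fold while Nanog was 3.39-fold higher. In the fit of these 5 libraries the log2 fold change of Otx2 was -1.74 ± 0.35 (SE), with a 95% interval from -2.55 to -0.93, but the adjusted p of edgeR's quasi-likelihood test was 0.256. That model called 0 of 14934 genes (0.0%) at an adjusted p under 0.05, Nanog included (log2 1.76 ± 0.24, adjusted p = 0.256). It gave 1137 genes an unadjusted p under 0.05, and DESeq2 called 163, with Otx2 among them (adjusted p = 0.00075). With the 6 libraries without LIF added to estimate the spread, edgeR called Otx2 in the same contrast at -1.76 ± 0.26 (adjusted p = 0.0198), 1 of 88 genes (0.563% of those tested). The adjusted p was 0.05 without the C2 library with LIF and Dox and 0.0574 without the second C2 library with LIF alone.

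The Nanog transgene of 44iN cells gave the larger estimate. Otx2 had 1380 and 1769 normalised counts 24 h after Dox removal and 218 and 171 with Dox. The pairs were far apart, with an 8.09-fold higher mean after Dox removal, where Nanog was 22-fold lower. The log2 fold change with Dox was -2.92 ± 0.29 (95% interval -3.63 to -2.21), and 18 of the 14376 genes tested, Otx2 included, were as low or lower. The edgeR fit of these 4 libraries called 0 genes (0.0%), Otx2 at an adjusted p of 0.156, with 1023 genes at an unadjusted p under 0.05. DESeq2 called 141 genes, Otx2 at an adjusted p of 1.11e-12. With any 1 of the 4 libraries left out, edgeR called 61 to 3413 genes and Otx2 each time (adjusted p 1.2e-15 to 0.00652), in fits that leave 1 library in one condition and take its spread from the other. In the joint test of both systems, where a gene is called if Dox changed it in either, edgeR gave Otx2 an adjusted p of 0.0152 (log2 -1.72 in SunTag and -2.93 in 44iN), among 48 called genes (0.307%). This call was lost without 1 library in 3 cases, the first or second 44iN library without Dox for 24 h (adjusted p = 0.107 and 0.125) and the second 44iN library with Dox (0.0733). The change in 44iN was larger than that in SunTag by 1.21 ± 0.45 on the log2 scale (a difference of -1.21, 95% interval -2.21 to -0.21, adjusted p of edgeR 1). For that difference edgeR called 0 genes (0.0%), 514 had an unadjusted p under 0.05, and DESeq2 called 16. The difference was -0.71 without the C1 library with LIF and Dox and -1.55 without the C2 one, the ends of its range with 1 library left out.

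Cells that had lost Nanog were also compared with wild-type cells. Tg2a libraries had 865, 743 and 672 normalised counts of Otx2, and the long-term 44iN libraries without Dox had 1336 and 2025. Each of the latter was above each of the former, and Nanog was 78.2-fold lower in the long-term cells. Their Otx2 was higher by 1.09 ± 0.23 on the log2 scale (edgeR adjusted p = 0.0329, with 5.24% of genes called). The 24 h libraries, at 1380 and 1769, were likewise above Tg2a (0.93 ± 0.23, adjusted p = 0.0391, 10.9% called). These calls were close to the threshold, and each was lost when any 1 of 7 of the 9 libraries was left out, all but the 2 with Dox (adjusted p up to 0.265 for the long-term cells, without their second library, and up to 0.173 for the 24 h cells, without the second 24 h library). Between long-term and 24 h absence of Nanog the libraries overlapped, with a log2 difference of 0.16 ± 0.26 (95% interval -0.42 to 0.73, edgeR adjusted p = 0.717, 8.74% called), in a comparison in which Nanog itself was lower by 1.46 (adjusted p = 0.00734). The marker sums of extraembryonic endoderm given above were higher in Tg2a and long-term 44iN than in the 24 h libraries (494 to 998), as were those of fibroblasts (210 to 379 at 24 h). Their part in these differences, and that of the G418 selection of the long-term cells, was not tested.

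The 44iN cells with Dox were set against the same Tg2a libraries. Their Otx2 (218 and 171) was below that of all 3 Tg2a libraries, by -2.02 ± 0.26 on the log2 scale (95% interval -2.6 to -1.44, edgeR adjusted p = 0.00628, 4.72% of genes called). Their Nanog, at 15880 ± 3560 normalised counts (n = 2), was not above that of Tg2a at 19710 ± 474 (n = 3), with a log2 difference of -0.37 ± 0.18 (95% interval -0.77 to 0.03, adjusted p = 0.269). So at a Nanog RNA level near that of wild-type cells, Otx2 stood 3.91-fold lower. How reads of the transgene map to the annotated Nanog gene is not given in the sources used here, which limits the comparison of these Nanog counts. Marker sums differed as well. Extraembryonic endoderm summed to 145 to 558 in 44iN cells with Dox and 5060 to 7300 in Tg2a. Fibroblast markers summed to 257 to 291 and 1380 to 1740. Their part in the difference of Otx2 was not tested.

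LIF withdrawal raised Otx2 in both sets of SunTag lines. In Nanog SunTag cells without Dox it went from 908, 704 and 740 normalised counts with LIF to 4254 and 3534 (C1) and 4927 (C2) without it. The 2 sets did not overlap and their means differed 5.41-fold. The log2 fold change was 2.42 ± 0.23 (95% interval 1.92 to 2.91, edgeR adjusted p = 1.41e-05). Withdrawal changed much of the transcriptome, 41.5% of 15624 genes, and 613 genes, Otx2 included, had as high a fold change or higher. In Nanog/Otx2 cells without Dox, Otx2 went from 1062 and 1059 (C1ON3) and 736 (C2ON3) to 3372 and 4389 (C1ON3) and 3387 and 5148 (C2ON3). Again no library with LIF reached one without it (4.28-fold, log2 2.04 ± 0.16, adjusted p = 8.4e-08, 49.8% of genes called). Marker sums moved with LIF in the same libraries. In Nanog SunTag cells without Dox the ES cell sum went from between 127000 and 136000 normalised counts with LIF to between 37300 and 48400 without it, the trophoblast sum from 1100 to 1730 down to 135 to 250, and the primitive streak and mesoderm sum from 142 to 230 up to 446 to 654. In Nanog/Otx2 cells without Dox the same sums went from between 147000 and 181000 to between 66900 and 85000, from 1030 to 1540 down to 97.3 to 223, and from 120 to 153 up to 207 to 312. With LIF, 3 of the 4 trophoblast genes had means under 10 in both sets, so that sum does not stand for the list as a whole. Extraembryonic endoderm markers summed to 317 to 972 with LIF and 1000 to 1960 without it in Nanog/Otx2 cells. In Nanog SunTag cells they overlapped, at 688 to 1570 and 1540 to 1810. The part of these marker sums in the change of Otx2 was not tested.

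Without Dox, the Otx2 guide on its own went with no detectable shift in Otx2. The log2 difference between Nanog/Otx2 and Nanog SunTag cells was 0.29 with LIF (95% interval -0.11 to 0.68, edgeR adjusted p = 0.348) and -0.09 without LIF (-0.45 to 0.27, adjusted p = 0.747), in comparisons that called 12.7% and 25.4% of genes. The library names of the 2 sets carry different prefixes, 1 for each, and in any level compared between the sets this difference and the guide cannot be told apart.

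Without LIF, Otx2 was lower in the cells with induced Nanog but stayed above its level with LIF. In Nanog SunTag cells Otx2 had 2248 and 2484 (C1) and 2620 (C2) normalised counts without LIF and with Dox, against 4254, 3534 and 4927 without Dox. All 3 libraries with Dox were below the 3 without, 1.73-fold in the mean, while Nanog was 8.76-fold higher. The log2 difference was -0.76 ± 0.21 (95% interval -1.23 to -0.29), which edgeR did not call (adjusted p = 0.0658, 5.14% of genes called). With the clone as a block, since the same lines were grown in each condition, it was -0.77 (edgeR adjusted p = 0.042). DESeq2 gave an adjusted p of 0.0104. Marker sums moved in the same libraries. On Dox the ES cell sum went from 37300 to 48400 up to 65600 to 76100. Extraembryonic endoderm went from 1540 to 1810 down to 674 to 946, and trophoblast from 135 to 250 up to 479 to 742. Primitive streak and mesoderm, neural and fibroblast sums overlapped. The part of these sums in the change of Otx2 was not tested. Otx2 without LIF and with Dox was 3.12-fold above the level with LIF alone, although Nanog was 2.08-fold above its own level there. Among cells with Dox, LIF withdrawal raised Otx2 from 308 and 166 to 2248 to 2620 normalised counts, 10.3-fold (log2 3.42 ± 0.28, adjusted p = 4.48e-05, 32.6% called), with a Nanog difference that edgeR did not call (log2 -0.68 ± 0.39, adjusted p = 0.2). The Dox effects with and without LIF differed by 1.00 ± 0.33 (95% interval 0.27 to 1.72), which was not called (adjusted p = 0.168, 1.93% of genes called). It was 0.64 without the C2 library with LIF and Dox and 1.47 without the C1 one (edgeR adjusted p = 0.303 and 0.0592).

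In the lines that also carry the Otx2 guide, Otx2 responded to Dox in the opposite direction. In Nanog/Otx2 cells with LIF, Otx2 rose from 1062, 1059 and 736 normalised counts to 3806 and 3546 (C1ON3) and 3471 and 3214 (C2ON3). The 4 libraries with Dox were all above the 3 without it, in clones that had been chosen for this, as they had for the increase of Nanog. The log2 fold change was 1.88 ± 0.16 (95% interval 1.54 to 2.21, edgeR adjusted p = 7.83e-06, rank 9 by p of 15609 genes), in a comparison that called 22.9% of genes. This induced level overlapped that of the uninduced Nanog/Otx2 cells without LIF (3372 to 5148), with 1 library, at 3214, below all of them. Nanog was raised in the same libraries, by 1.19 ± 0.34 (adjusted p = 0.0196).

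Without LIF, Otx2 in the Nanog/Otx2 lines, chosen for its induction, rose on Dox from a level that was already high. Otx2 went from 3372, 4389, 3387 and 5148 normalised counts to 7347 and 7311 (C1ON3) and 6827 and 7206 (C2ON3). The groups did not overlap, and the libraries with Dox were closer together than those without. The log2 fold change was 0.85 ± 0.13 (95% interval 0.57 to 1.14, edgeR adjusted p = 0.000566, 17.3% called), and an exact permutation test of the log2 values gave a difference of 0.84 with p = 0.0286 (two-sided), the smallest p that 4 against 4 libraries allow. It was 0.0571 without any 1 of 3 libraries with Dox (C1ON3 1 and 2, C2ON3 2). Among cells with Dox, LIF withdrawal raised Otx2 by 1.02 ± 0.13 (edgeR adjusted p = 3.96e-05, 36.5% called), and the exact permutation test gave 1.03 with p = 0.0286. These tests exchange libraries freely. Exchanged only within the 4 pairs of one clone and number, the exact permutation p was 0.125 for both, the smallest that 4 pairs allow. On the log2 scale the Dox effect was smaller without LIF than with it, by -1.02 ± 0.20 (95% interval -1.45 to -0.6, edgeR adjusted p = 0.00476, 9.7% called). Nanog went the other way, its Dox effect larger without LIF by 2.00 ± 0.44 (edgeR adjusted p = 0.0104). In normalised counts the Otx2 mean rose from 4074 to 7173 without LIF and from 952.3 to 3509 with it.

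**Figure D3:**
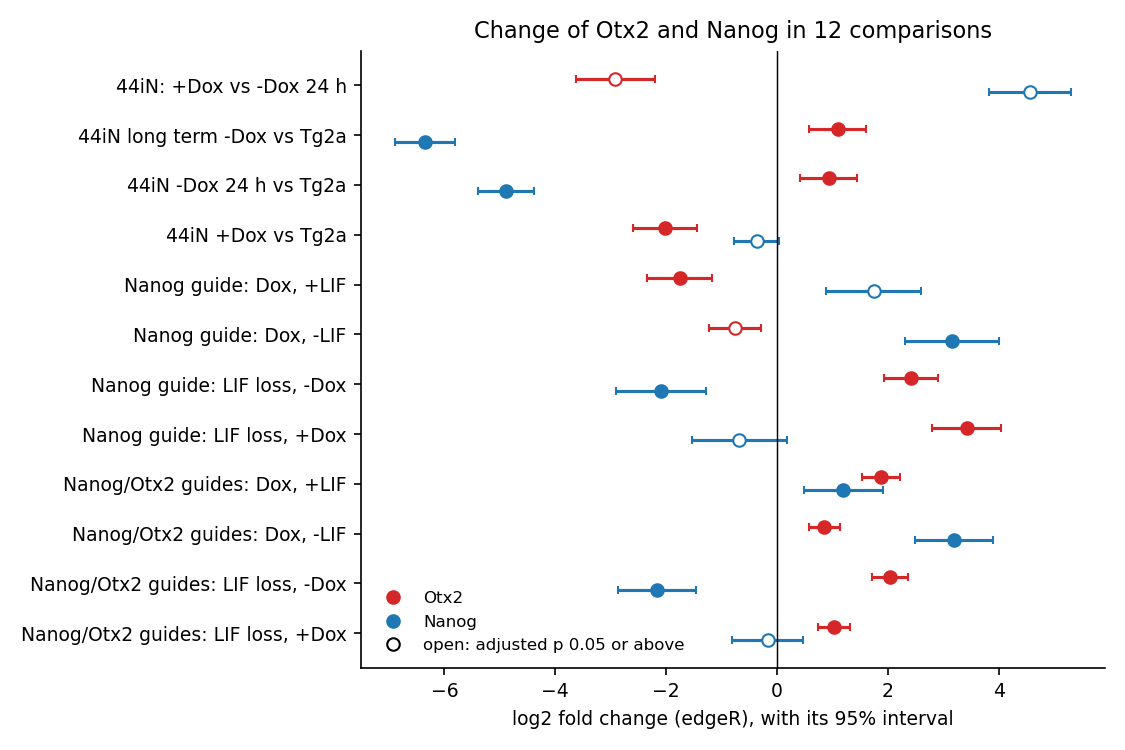
Log2 fold changes of Otx2 (red) and Nanog (blue) from edgeR in 12 comparisons, with 95% intervals; open symbols have an adjusted p of 0.05 or above. The Dox estimates of Otx2 are below 0 under the Nanog guide and above 0 under both guides (1.88 with LIF, 0.85 without), and the Nanog estimate is above 0 in all 4, though not called under the Nanog guide with LIF.

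The 2 sets of lines were then compared directly, by the difference of their Dox effects. C1ON3 and C2ON3 had been chosen for a rise of Otx2 on Dox, so a positive difference was favoured in advance. Its p-value and rank for Otx2 are therefore not independent support. The guide, the clones and the library name prefix cannot be told apart in it. With LIF this difference was 3.63 ± 0.30 (95% interval 3.01 to 4.25, edgeR adjusted p = 3.5e-07), and Otx2 was the first of 16210 genes by p among 6 called (0.037%). The same difference for Nanog was -0.57 ± 0.54 (95% interval -1.69 to 0.55, adjusted p = 0.757). Without LIF it was 1.57 ± 0.25 for Otx2 (95% interval 1.06 to 2.08, adjusted p = 0.00914), 1 of 5 called genes (0.0308%), all of them called higher (0.0308% higher, 0.0% lower), and -0.01 ± 0.49 for Nanog (-1.03 to 1.02, adjusted p = 1). Without the first C1 library without LIF and with Dox, the adjusted p of Otx2 was 0.0743 and 0 genes were called. In level, Nanog/Otx2 cells with Dox had more Otx2 than Nanog SunTag cells with Dox by 3.92 ± 0.25 with LIF (14.8-fold in the means, adjusted p = 8.99e-10, 28.5% called) and by 1.48 ± 0.18 without LIF (2.93-fold, adjusted p = 2.25e-06, 41.0% called).

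Kif21a, a kinesin motor gene, was the other gene called in both differences, at 2.16 ± 0.37 with LIF (adjusted p of edgeR 0.0184) and 1.97 ± 0.29 without (0.00914). In Nanog/Otx2 cells with LIF it had 209, 202 and 120 normalised counts without Dox and 699, 573, 618 and 535 with Dox, with no overlap, and 1240, 1270, 963 and 1110 against 2890, 2600, 2100 and 1750 without LIF. In Nanog SunTag cells it had 1870, 1840 and 1630 without LIF and Dox and 827, 904 and 972 without LIF and with Dox, again with no overlap but in the opposite direction. With LIF the Nanog SunTag libraries overlapped, at 153, 134 and 86.1 without Dox and 56 and 117 with Dox (log2 -0.48 ± 0.31, adjusted p of edgeR 0.513). It was named after its values were seen. The other genes called with LIF were AU022751, Ksr2 (a scaffold of Ras signalling), Gm3362 and Rpl36a-ps3, and those called without LIF were Zfp36l3, Psmb8 (an immunoproteasome subunit) and Kcnj12 (a potassium channel). Gm3362 and the pseudogene Rpl36a-ps3 may share reads with near-identical copies, so their counts are uncertain.

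The clones moved in the same direction throughout. With Dox, Otx2 was 2.95-fold lower in C1 and 4.35-fold lower in C2 with LIF, and 1.65-fold and 1.88-fold lower without LIF. It was 3.47-fold higher on Dox in C1ON3 and 4.54-fold in C2ON3 with LIF, and 1.89-fold and 1.64-fold without LIF. These folds rest on 1 or 2 libraries on each side. The difference between C2ON3 and C1ON3 was 0.44 ± 0.30 with LIF (95% interval -0.2 to 1.09, edgeR adjusted p = 0.65, 0.14% called) and -0.19 ± 0.23 without (-0.69 to 0.3, adjusted p = 1). In the last comparison edgeR called 0 genes (0.0%), 926 had an unadjusted p under 0.05 and DESeq2 called 16. The clones differed more in Nanog, which without LIF and Dox was at 7758 normalised counts in C1 and 2234 in C2, and at 6597 in C1ON3 and 2253 in C2ON3.

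Nanog and Otx2 levels were set side by side over the conditions, with no pooled correlation because the libraries form separate clusters. In the 6 conditions with LIF and without the Otx2 guide, the condition with more Nanog had less Otx2 in 11 of 15 pairs. Over the 8 conditions without the Otx2 guide this was 17 of 28 pairs, and over all 12 it was 36 of 66. Most of the 11 pairs include 44iN cells without Dox, which had the lowest mean Nanog (722.5 at 24 h and 251.9 long term). Pairs whose libraries overlapped in Otx2 were counted as well. The exceptions among cells with LIF include 44iN cells with Dox, with less Otx2 and less Nanog than Tg2a. Nanog SunTag cells without LIF and with Dox had more of both than those with LIF alone, 2450 against 784 normalised counts of Otx2 and 51800 against 24920 of Nanog.

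**Figure D4:**
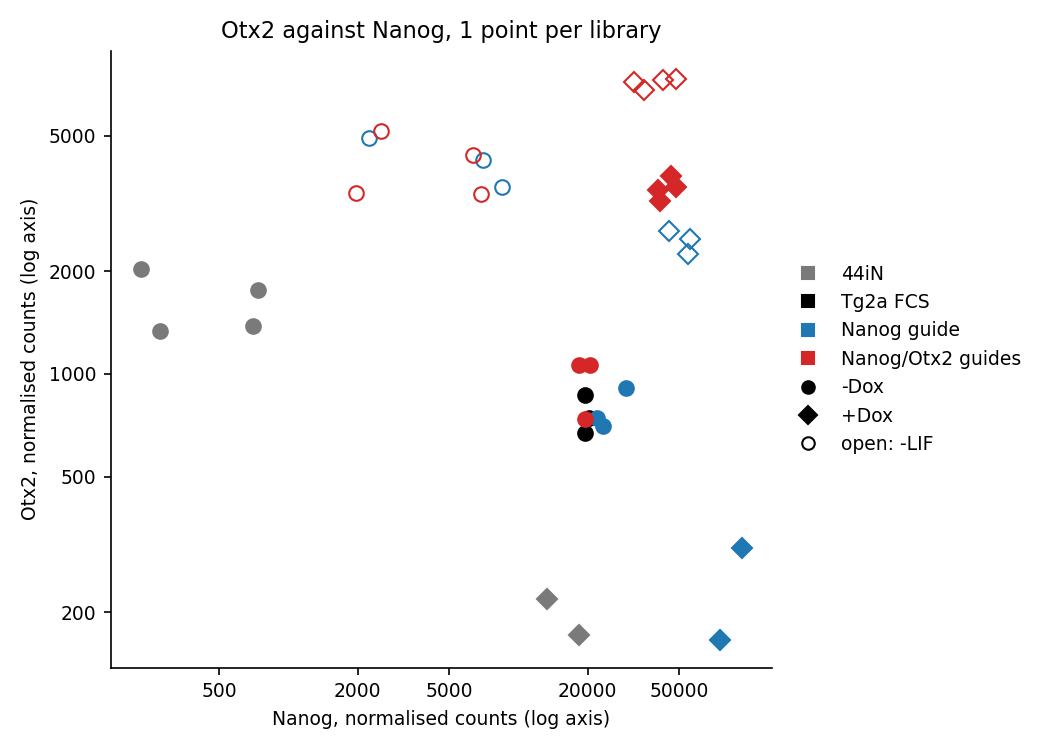
Otx2 against Nanog, both in normalised counts on log axes, 1 symbol per library; colours give the cells, diamonds Dox and open symbols the absence of LIF. Cells with LIF and no Otx2 guide run from the upper left to the lower right, cells without LIF lie above them, and the Nanog/Otx2 cells with Dox occupy the upper right, with at least 3214 Otx2 counts.

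Genes of the same programmes were counted beside Otx2, in lists that describe the background of its change. In the formative and primed epiblast list, all 19 genes were tested. LIF withdrawal in Nanog SunTag cells without Dox raised 15 and lowered 2 of them, against 20.2% and 21.3% of all genes, with a median log2 fold change of 2.22 against -0.05 for all genes. The largest increases were those of Fgf5, a secreted factor of the epiblast (9.43 ± 0.75), Sema6a, a semaphorin (7.45 ± 0.73), Pou3f1, a neural POU factor (4.89 ± 0.27), and Sall2, a zinc finger factor (4.58 ± 0.31). Dox without LIF in Nanog SunTag cells raised 1 and lowered 8 (3.6% and 1.54% of all genes, median -0.71 against 0), among them Sema6a (-2.80 ± 0.54), Sox3, an early neural factor (-2.58 ± 0.30), and Fgf5 (-2.03 ± 0.45). The count of genes that fell rested on single libraries. It was 2 or 3 without 1 of the C1 libraries without LIF and with Dox, and 3 or 4 without any 1 of the libraries without LIF and Dox.

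In Nanog/Otx2 cells, in which Otx2 rose on Dox, 1 gene of the formative list rose and 7 fell without LIF (11.2% and 6.15% of all genes, median -0.32 against -0.01). With the clone and its number as a block, 2 rose. Sema6a (-2.03 ± 0.34), Sox3 (-1.30 ± 0.22) and Id1, an inhibitor of bHLH factors (-1.28 ± 0.34), fell. The count of genes that fell was 3 or 4 without 1 of 4 libraries without LIF, C2ON3 1 and 2 without Dox, and C1ON3 2 and C2ON3 1 with Dox. The difference between the guides was called for 0 of the 19 (median 0.34 against -0.05), a comparison in which edgeR called 5 genes in all. The estimates ran from -0.28 ± 0.52 (Grhl2) to 1.28 ± 0.48 (Fgf5), with Sox3 at 1.24 ± 0.35. Pou3f1, Sox3, Sox11 and Id1 of this list were named by the study from these libraries, as genes on which Nanog and Otx2 act in opposition. Their direction is therefore not independent evidence.

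The naive pluripotency list moved the opposite way. All 14 were tested, and LIF withdrawal lowered 13, against 21.3% of all genes (median -3.82 against -0.05), led by Klf4 (-5.56 ± 0.22), Tbx3 (-5.31 ± 0.39), Tfcp2l1 (-4.85 ± 0.24) and Esrrb (-4.79 ± 0.21), transcription factors of the naive network. Dox without LIF raised 13 in Nanog SunTag cells, against 3.6% of all genes (median 2.44 against 0), with Prdm14 at 3.28 ± 0.37 and Esrrb at 3.23 ± 0.20. It raised 11 in Nanog/Otx2 cells, against 11.2% (median 2.15 against -0.01), with Tbx3 at 3.09 ± 0.30, Prdm14 at 3.04 ± 0.15 and Esrrb at 3.03 ± 0.10. The difference between the guides was called for 0 of 14, in a comparison that called 0.0308% of all genes (median -0.35 against -0.05).

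Genes linked to Otx2 in the head organiser and anterior neural plate were mostly too low to test. Of the 17 in the tables, 6 to 8 passed the filter on low counts, depending on the libraries compared. LIF withdrawal lowered Dmbx1, a homeobox gene of the midbrain (-1.23 ± 0.45), and raised none of the 6 tested, where 21.3% of all genes were lowered and 20.2% raised. Dox without LIF raised 2 of 7 in Nanog/Otx2 cells, Hesx1, an anterior homeobox gene (1.99 ± 0.59), and Dmbx1 (0.90 ± 0.26), and called 0 of 6 in Nanog SunTag cells, where they had 1.01 ± 0.59 and 0.58 ± 0.44 (11.2% and 3.6% of all genes were called higher). The difference between the guides was called for 0 of 8, Hesx1 at 0.94 ± 0.90 and Dmbx1 at 0.26 ± 0.47. The count of 2 fell to 0 without 1 of 3 libraries without LIF and Dox (C1ON3 1 and 2, C2ON3 2) and to 1 without 1 of 3 with Dox (C1ON3 1 and 2, C2ON3 2), and the Dmbx1 decrease after LIF withdrawal was lost without any 1 of 10 of the 11 libraries. With the replicate block, 1 gene rose after LIF withdrawal, and 4 rose and 1 fell on Dox in the Nanog/Otx2 cells. Of the OTX family itself, Otx1 had condition means of 1.48 to 17.5 normalised counts and was not called in the comparisons that tested it, and Crx did not pass the filter.

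The neighbours of Otx2 were checked because the activator was brought to this locus. Within 500 kb of the most distal Otx2 start the annotation has 9 other genes, and 3 passed the filter. The uncharacterised gene 6720456H20Rik, at -221.5 kb (the side of lower coordinates), rose on Dox in Nanog/Otx2 cells with LIF (0.87 ± 0.21, edgeR adjusted p = 0.00942) and without (0.73 ± 0.19, adjusted p = 0.0152). In Nanog SunTag cells, without the Otx2 guide, its log2 fold changes on Dox were 0.75 ± 0.33 and 0.90 ± 0.30 (adjusted p = 0.334 and 0.123), and the differences between the guides were 0.09 ± 0.35 and -0.21 ± 0.31. Mudeng and Exoc5, 398.9 and 399 kb away on the other side, were at 0.03 ± 0.12 and 0.00 ± 0.12 with LIF and at 0.19 ± 0.11 and -0.11 ± 0.10 without, with no call. Of the rest, 5 stayed under 3 normalised counts in every library, and Gm6498 reached at most 46.8.

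The genes whose pattern was most like that of Otx2 were sought over the 8 conditions without the Otx2 guide, by Pearson correlation of condition means on the log2(normalised count + 1) scale among 12845 genes with a mean of at least 100 in some condition. The 10 highest were Cachd1 (r = 0.948), Foxi3 (0.943), Wt1 (0.938), Cep78, Gm98, Dtd1, Mtap7d3, Spata13, Pla2g4a and Slc9a7 (0.921). The 5 most unlike were Apom (-0.981), Adamtsl1, Slc4a11, Ikbke and Oas2 (-0.952). These values describe 8 points that share libraries.

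The Nanog/Otx2 libraries had no part in the correlations. Their condition means did count in the filter on level that set which genes were ranked. Each gene listed also passed that filter by its mean in a condition without the Otx2 guide. The ranking used conditions with induced Nanog. Under the Nanog guide without LIF, Dox lowered the means of Foxi3 (606.5 to 133.6), Wt1 (819.1 to 264.1) and Cachd1 (1415 to 327.3), but not Pla2g4a (332.9 to 361). In Nanog/Otx2 cells the same Dox raised Nanog, by 1.19 with LIF and 3.19 without (log2). The parts of Nanog and Otx2 in the changes below were not tested. In Nanog/Otx2 cells Otx2 rose on Dox with LIF while 6 of the 10 most like genes fell and 1 rose (10.0% and 12.9% of all genes were called lower and higher). Foxi3, a forkhead factor, fell by 1.71 ± 0.29 on the log2 scale, Wt1, the Wilms tumour zinc finger factor, by 1.59 ± 0.50 and Cachd1 by 0.64 ± 0.20. Pla2g4a, a cytosolic phospholipase, was the one that rose (1.32 ± 0.36). Without LIF 4 of the 10 fell, Foxi3, Cachd1, Wt1 and Spata13, and none rose (6.15% and 11.2% of all genes were called lower and higher). Of the 5 most unlike genes 2 rose with LIF (Adamtsl1 at 0.90 ± 0.30 and Ikbke at 1.38 ± 0.37) and 3 without (Oas2 at 1.67 ± 0.34, Adamtsl1 at 1.23 ± 0.33 and Slc4a11 at 0.64 ± 0.16), against the same shares of all genes, and none fell.

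**Figure D5:**
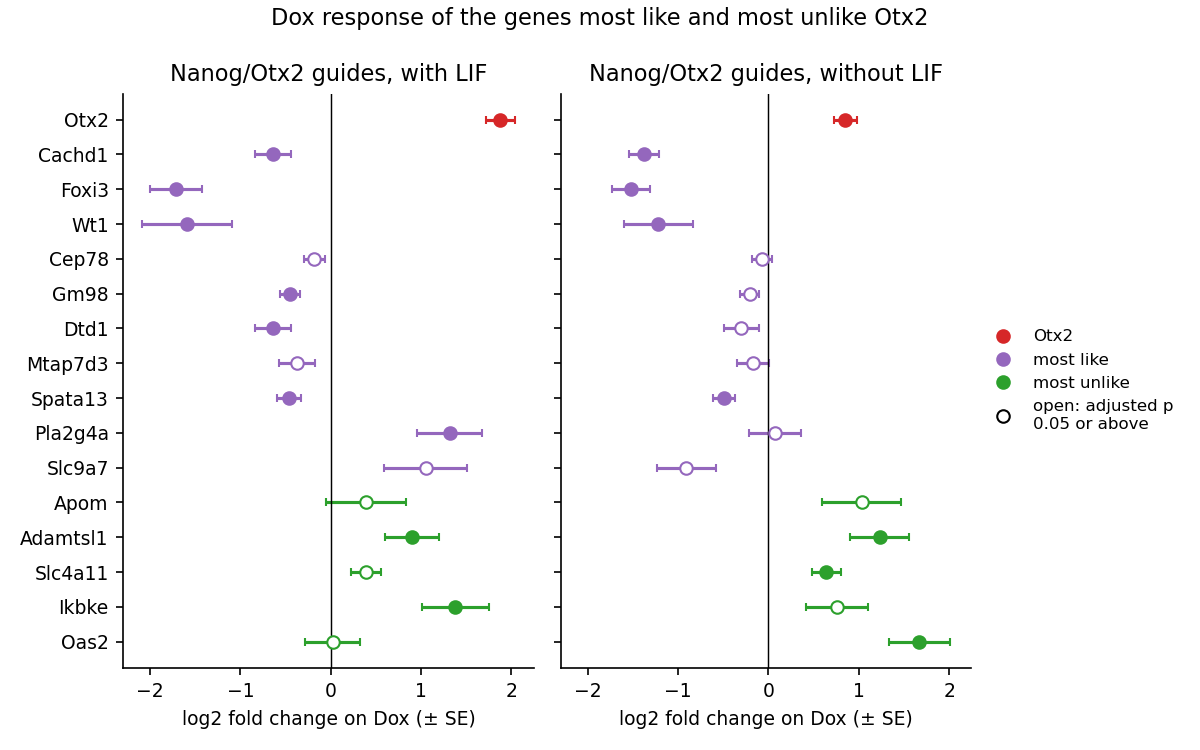
Log2 fold change on Dox in Nanog/Otx2 cells, with LIF (left) and without (right), of Otx2, the 10 genes most like it and the 5 most unlike it in the other conditions; bars are the SE and open symbols have an adjusted p of 0.05 or above. Otx2 is to the right of 0 in both panels while most of the like genes are to the left, except Pla2g4a in both and Slc9a7 with LIF.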

How the data were processed

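Polyadenylated RNA was sequenced from 35 libraries of mouse ES cells in stranded, single-end mode. STAR (mm9) and RSEM were used by the authors for alignment and estimation of gene counts, and they deposited expected counts (rounded here) and DESeq2-normalised counts. Per the labels, base calling was by CASAVA 1.8; versions of STAR, RSEM and DESeq2 are not given in the sources used here. The deposited normalised counts are a signal scaled by library and were used for levels only.

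Changes were tested with edgeR 4.0.16 (TMM, quasi-likelihood F test, R 4.3.3) on the deposited counts, over genes whose normalised count reached 10 throughout some condition of the model, and p-values were adjusted over all genes tested by the Benjamini-Hochberg method (threshold 0.05). The SE is the absolute log2 fold change over the root of F. The models held 5 SunTag libraries with LIF, 4 of 44iN, both together (9), the 9 44iN and Tg2a libraries, 11 Nanog, 15 Nanog/Otx2, and all 26 SunTag libraries, each with 1 term per condition; the test of clones added the clone. The 26 tests of Otx2 share libraries, and so share controls, within each model. DESeq2 1.42.0, another scaling, 2 other filters, 1 fit of all libraries, a replicate block and 94 fits with 1 library left out were the alternatives. Exact permutation tests were two-sided on log2(normalised count + 1). The scripts were tested on simulated data.

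Same-numbered libraries were checked for pairing by the correlation of their deviations from the condition means. SunTag lines pair across conditions as the same clone: the median correlation was 0.142 over 22 pairs of one clone in Nanog SunTag cells, and at least 0.131 in each of 21 pairs of one clone and number in Nanog/Otx2 cells. Numbers were taken from the sample titles. The column names give another number for 3 of the 11 Nanog SunTag libraries, where the block was the clone alone, and for 1 of the 15 Nanog/Otx2 libraries (C2ON3 with LIF and without Dox), where a block with the other number was not tested.

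Sequences and positions came from the mm9 genome and its annotation, and guides were matched exactly on both strands. Otx2, the gene lists and the tests were chosen with earlier results of these data known. The text names Otx2 and Nanog throughout, up to 4 called members of each list by size of log2 fold change, the neighbours within 500 kb, the 10 genes most like and 5 most unlike Otx2, and the genes called in the difference between guides. The ends of the formative list in that difference, and Sox3, are given although they were not called. The values of 1 list member are not reported here. Otx2os1 and Sox1 were not analysed here, nor were Tg2a cells in 2i, ChIP-seq or ATAC-seq.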

Additional observations from a re-analysis of the deposited data

Results flagged for a closer look

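The effect of Dox on Otx2 differed between conditions by a test of the difference in 3 comparisons. Between the Nanog/Otx2 lines, chosen for a rise of Otx2, and the Nanog lines it differed by 3.63 (log2 scale) with LIF and 1.57 without. In Nanog/Otx2 cells it was smaller on this scale without LIF than with it, a difference of -1.02, where that of Nanog was 2.00 in the other direction. In the 3 conditions with 4 libraries, no library stood apart from the others in Otx2 or Nanog (6 groups tested).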

How the results depend on the processing

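Apart from fits with 1 library left out, 150 alternative values of Otx2 were computed, of which 137 kept the direction and side of the threshold, 2 lost it and 11 passed it only under the alternative. The 2 were the permutation differences of 0.84 and 1.03 with the replicate block, as signs exchanged within the 4 pairs, an alternative chosen after seeing the data (exact p = 0.125 each, the smallest possible). The 11 were, for Dox with LIF under the Nanog guide in 5 libraries, DESeq2 (-1.76), no filter (-1.76) and all 35 libraries in 1 fit (-1.78); for 44iN, DESeq2 (-2.94), no filter (-2.91), the replicate block (-2.90, adjusted p of edgeR 2.46e-35, 1912 genes called) and all 35 libraries (-2.91); for Dox without LIF under the Nanog guide, DESeq2 (-0.78), the replicate block (-0.77) and all 35 libraries (-0.76); and for the interaction of LIF and Dox, all 35 libraries (1.02). The cause was not tested. In 44iN the 2 pairs share only a number (correlation 0.492), and the replicate block changed no other edgeR call of Otx2. The difference of the Dox effect on Nanog between guides without LIF turned to 0.04 with DESeq2 and with its size factors in edgeR, and ranged from -0.3 to 0.38 with 1 library left out.

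With 1 library left out, 361 of 394 values of Otx2 kept their call, 23 lost it, 7 gained it and 3 turned direction. The log2 ranges were -3.10 to -2.69 for Dox in 44iN, -2.23 to -1.40 and -0.86 to -0.63 for Dox with and without LIF under the Nanog guide, 0.72 to 1.35 for long-term 44iN and 0.72 to 1.06 for 24 h against Tg2a, -0.19 to 0.42 for long-term against 24 h, 1.44 to 1.74 for the difference between guides without LIF, -0.23 to 0.04 for the level between guides without LIF and Dox, and -0.46 to 0.14 for the clone difference without LIF. The adjusted p of the joint test ranged from 0.0196 to 0.125, and the permutation difference for Dox without LIF from 0.76 to 0.96 (exact p 0.0286 to 0.0571). The range was -1.55 to -0.71 for the difference between 44iN and SunTag and 0.64 to 1.47 for the interaction under the Nanog guide.

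Counts of called genes over all genes moved by more than 1.5 times in several alternatives. With the replicate block they went from 48 to 153 in the joint test, from 803 to 1375 for Dox without LIF, from 88 to 293 for Dox with LIF and from 302 to 709 for the interaction under the Nanog guide, and from 2702 to 5215, 3577 to 6401 and 1514 to 3407 for the same under both guides. The block also took the calls for the difference between guides without LIF from 5 to 10 and for that between 44iN and SunTag from 0 to 2. DESeq2 called 410 genes in the joint test, 55 and 42 for the differences between guides with and without LIF (6 and 5 in edgeR), 68 for the clone difference with LIF (24), 1754 and 3209 for long-term and 24 h 44iN against Tg2a (803 and 1669), 2555 between these (1339), 1567 for 44iN with Dox against Tg2a (723), and 587, 1509 and 875 for Dox with and without LIF and their interaction under the Nanog guide (88, 803 and 302). Without a filter edgeR called 84 genes for Dox in 5 SunTag libraries, 434 in 44iN, 615 in the joint test, 111 for their difference, 151 for Dox with LIF in 11 libraries, and 461 and 295 for the clone differences. All 35 libraries in 1 fit gave 792, 470, 1198 and 29 for the first 4 of these, 2115, 4465, 3363 and 1781 for long-term and 24 h 44iN against Tg2a, their difference and 44iN with Dox, 1706 and 1070 for Dox without LIF and the interaction under the Nanog guide, and 2093, 1599 and 905 for Dox with and without LIF and the interaction under both guides. Of the 10 genes most like Otx2, 3 were found again by Spearman correlation, 7 with a pseudocount of 10, 6 over 20 libraries and 2 over the 6 conditions with LIF. The block could not be fitted for levels between guides. Depth limits the lowest libraries, at 110 Otx2 reads.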
